A study of Rattus norvegicus with 6 samples.

Results

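The genes described here set the pace of the G1 phase of the cell cycle: the D-type cyclins Ccnd1, Ccnd2 and Ccnd3, their kinases Cdk4 and Cdk6, the CDK inhibitors Cdkn1a, Cdkn1b and Cdkn2c, and the retinoblastoma gene Rb1. They were chosen by name for their role in the control of cell cycle exit, with earlier results of these data known. All 9 were represented among the 14217 genes that had a probe set of their own, and they had 14 of the 31042 probe sets tested. A gene was represented by its brightest probe set over all arrays, and the remaining 5 probe sets, which belong to 4 genes, served as a check.

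The tissue was the Achilles tendon of rats at post-natal day 7 and at post-natal day 1, with 3 arrays per age and RNA pooled from 2 or more animals on each array. Strain, sex and genotype were not given in the sources used here, and no treatment was named. RNA came from whole dissected tendons, so fewer cells of a type and less RNA per cell cannot be told apart. Each p-value thus reflects the spread among pools of one age, which may be technical.

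In G1, D-type cyclins bind Cdk4 or Cdk6, and the complex phosphorylates the Rb1 protein, which then releases E2F transcription factors that switch on the genes of S phase. Inhibitors of the INK4 family, of which Cdkn2c (p18) is a member, bind the kinases Cdk4 and Cdk6 alone, while those of the CIP/KIP family, Cdkn1a (p21) and Cdkn1b (p27), act on a wider range of cyclin-kinase complexes. In mice, tendon cells divide around birth and then largely leave the cycle during post-natal growth.

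The arrays were close in overall level, with a median probe set intensity of 20.9 to 21.1 on day 7, against 20.5 to 20.8 on day 1. Control probe sets for a bacterial trp transcript, which rat RNA lacks, gave 3.74 to 4.76, and this range is called the negative control level. For tendon, 8 markers were measured. None lay at the negative control level, but only 402 of all 14217 genes did, so this does not show that the tissue was tendon. The tendon transcription factor Scx read 797, 803 and 835 on day 7, against 747, 897 and 603 on day 1 (replicates 1, 2 and 3). The list as a whole was not level with age. Of the 8, 1 was called higher and 1 lower on day 7 (limma, adjusted p under 0.05). Log2 changes were above 0 for 6 and below 0 for 2, with a median of 0.41. Their summed intensity was 32928 to 42172 on day 7 and 17496 to 31835 on day 1. Other tissues were present too. Of 10 skeletal muscle markers, 5 were lower on day 7 and none higher (limma, adjusted p under 0.05), none lay at the negative control level, and their summed intensity was 23594 to 34976.5 on day 7 and 39906 to 48771 on day 1. Of 8 adipocyte markers 6 were higher, with sums of 2722 to 5435 on day 7 and 1546 to 1743 on day 1. Of 7 cartilage markers 1 was higher, with sums of 2900 to 5452 on day 7 and 1041 to 2880 on day 1. The summed intensity of 5 epidermal markers was 144 to 377 on day 7 and 135 to 5533 on day 1, and day 1 replicate 1 stood apart as the highest. The Schwann cell list (1 higher and 1 lower of 5), the endothelial list (1 higher of 6), the macrophage list (1 higher of 7), and the red cell list (none of 4) had medians between -0.33 and 0.84 on the log2 scale. Beside all these counts, 3.15% of all genes were called lower and 1.93% higher.

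Of the 9 genes, 1 passed the threshold, an adjusted p under 0.05 in limma over all probe sets tested. Ccnd3 was lower on day 7, and none was higher. Over all genes, 3.15% were called lower (448) and 1.93% higher (274), and after quantile normalization the split was 320 lower and 352 higher. The count of 1 in 9 rests on a single gene and is not a result about the group. At an unadjusted p under 0.05, 4 of the 9 were lower and 1 was higher, against 17.0% and 10.6% of all genes. In 3 of the 9 (Ccnd3, Cdk4 and Cdkn1a) every day 7 array lay below every day 1 array, which was true of 19.1% of all genes. Without Cdk6, whose probe set lay at the negative control level, the median log2 change of the 8 readable genes was -0.16, and that of all genes -0.01.

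**Figure D1:**
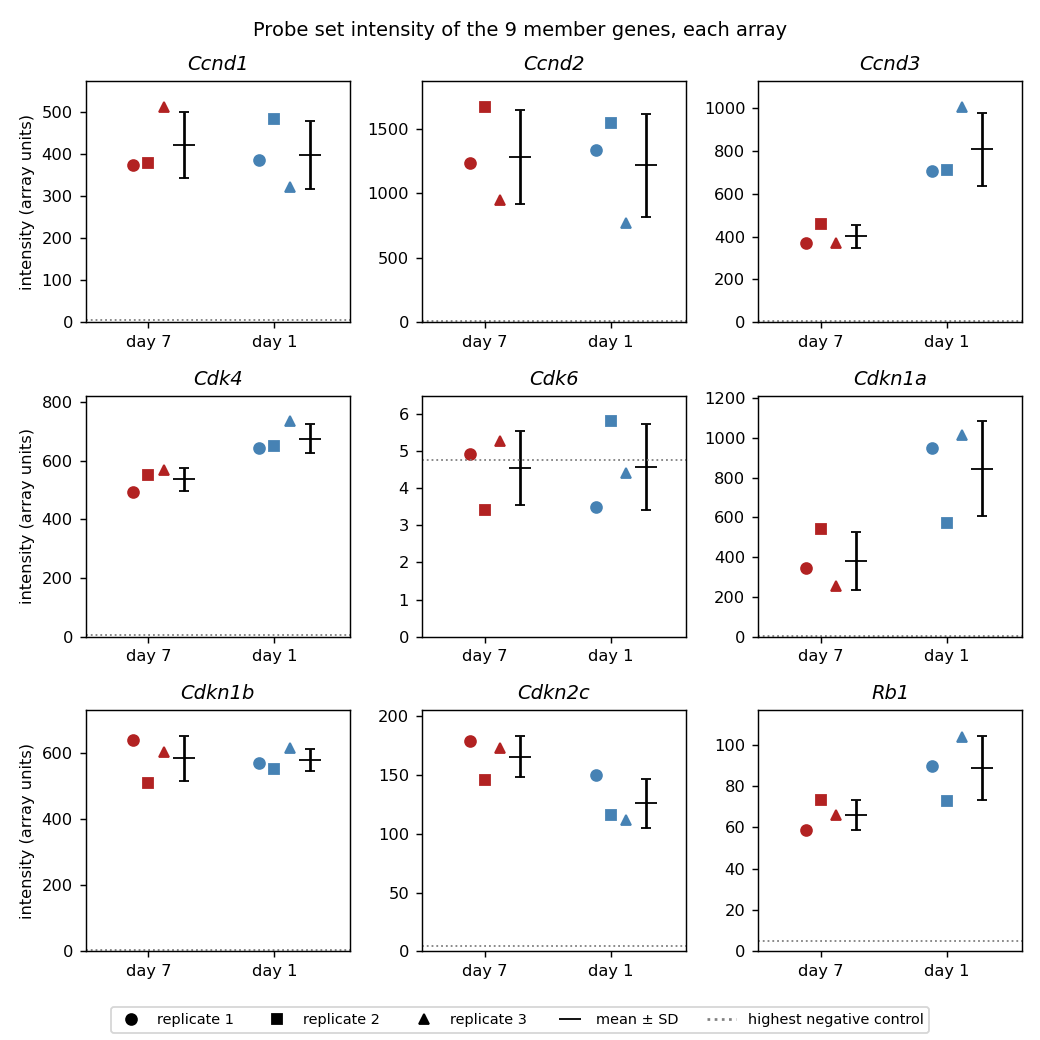
Intensity (array units, linear axes from 0) of the 9 genes on each array, with day 7 in red and day 1 in blue. Symbols mark replicates, the bar is the mean ± SD (n = 3), and the dotted line is the highest negative control reading of 4.76. Ccnd3, Cdk4 and Cdkn1a do not overlap between ages, and Cdk6 lies at the level of the negative control.

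Of the 3 D cyclins, 1 passed the test. Ccnd1, the D cyclin that growth factor signalling induces in most tissues, read 372, 377 and 512 on day 7, against 386, 482 and 322 on day 1. The groups overlapped, averaging 420 ± 79.0 on day 7 and 397 ± 80.6 on day 1 (SD, n = 3 each), with a log2 change of 0.09 (95% interval -0.34 to 0.52; limma adjusted p = 0.821). For its other probe sets the log2 changes were 0.18 (adjusted p = 0.355) and 0.12 (adjusted p = 0.629).

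Ccnd2, a D cyclin that is a direct target of Myc, read 1233, 1673 and 949.5 on day 7, against 1340, 1546 and 770 on day 1. The arrays of both ages covered the same range, and replicate 3 was the lowest of each age. The log2 change was 0.10, with a 95% interval from -0.57 to 0.77 (adjusted p = 0.877), so a change in either direction within that interval was not excluded.

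Ccnd3, the D cyclin that is also known for its rise in differentiating skeletal muscle cells, read 370, 461 and 372 on day 7, against 707, 713 and 1007 on day 1. The groups were well apart, and day 1 replicate 3 was the highest array. The mean was 401 ± 52.1 on day 7 and 809 ± 171.5 on day 1 (SD, n = 3 each), and the gene fell by 1.00 log2 units (SE 0.17; 95% interval -1.39 to -0.61; limma adjusted p = 0.0282). Ccnd3 had a single probe set, so no other served as a check of this call. The call was kept in 2 of the 6 fits that left out 1 array. With day 1 replicate 1 left out the log2 change was -1.08 (adjusted p = 0.0767), with day 1 replicate 3 left out -0.83 (0.0593), with day 7 replicate 1 left out -0.94 (0.122), and with day 7 replicate 3 left out -0.95 (0.0797).

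Set against each other within an array, Ccnd1 lay 1.09 (SE 0.39) and Ccnd2 1.10 (SE 0.50) higher relative to Ccnd3 on day 7 than on day 1, on the log2 scale. In both cases the day 7 arrays were all above the day 1 arrays. The exact permutation test gave p = 0.1 for each (two-sided; 0.18 after Benjamini-Hochberg adjustment over 9 pairs), the smallest p that 3 against 3 arrays allow. For Ccnd1 against Ccnd2 the difference was -0.01 (SE 0.40; exact p = 1).

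The promoter of Ccnd3 is shown because it is the only member called. The 250 bases before its start lie at chr9:20897876-20898125 of the rat assembly GRCr8, minus strand (RefSeq), and the capitals mark the single match to TGACGT, the core of the cAMP response element.
Ccnd3: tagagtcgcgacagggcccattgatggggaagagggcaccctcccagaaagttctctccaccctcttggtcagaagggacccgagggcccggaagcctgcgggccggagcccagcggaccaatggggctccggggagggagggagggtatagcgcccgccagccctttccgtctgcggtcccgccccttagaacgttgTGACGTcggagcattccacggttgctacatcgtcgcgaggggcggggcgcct
This core, searched on both strands, was found in 6.95% of 33469 windows of the same length. The match is a description of the sequence and not a binding site.

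Neither G1 kinase passed the test, and Cdk6 could not be read. Cdk4, the catalytic partner of the D cyclins, read 492, 552 and 566 on day 7, against 643, 649 and 733 on day 1. Every day 7 array lay below every day 1 array. The mean was 537 ± 39.3 on day 7 and 675 ± 50.4 on day 1 (SD, n = 3 each), with a log2 change of -0.33 (95% interval -0.59 to -0.07; limma adjusted p = 0.142), which did not pass.

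The promoter of Cdk4 is shown for its E-boxes, the element that Myc binds, since Myc was itself measured and called. The window lies at chr7:64771203-64771452, plus strand (GRCr8, RefSeq), and the capitals mark each match to CACGTG, which reads the same on both strands.
Cdk4: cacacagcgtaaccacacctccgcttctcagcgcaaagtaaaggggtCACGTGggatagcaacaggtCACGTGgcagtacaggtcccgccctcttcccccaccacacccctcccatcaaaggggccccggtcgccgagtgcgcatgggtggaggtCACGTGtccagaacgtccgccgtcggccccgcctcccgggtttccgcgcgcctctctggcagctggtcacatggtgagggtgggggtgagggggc
There were 3 matches, at 203, 183 and 95 bases before the start. Of the 33469 windows, 5.59% held at least 1 match and 17 held 3 or more. Myc, the growth-promoting transcription factor, read 44.4, 40.4 and 40.5 on day 7, against 62.9, 73.6 and 78.2 on day 1. It fell by 0.76 log2 units (SE 0.12; limma adjusted p = 0.0240), with no overlap between ages. This call was lost when day 1 replicate 1 (adjusted p = 0.0563), day 1 replicate 3 (0.0696), day 7 replicate 1 (0.0933) or day 7 replicate 3 (0.0672) was left out. Whether the levels of Myc and Cdk4 are linked was not tested.

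The only probe set for Cdk6 read 4.91, 3.40 and 5.28 on day 7, against 3.50, 5.79 and 4.40 on day 1. These values lie at the level of the negative control, so the probe set gives no level of Cdk6 and no fold change.

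Among the inhibitors, Cdkn1a had the largest log2 change. Cdkn1a, which p53 induces after damage and which muscle cells switch on as they leave the cycle, read 347, 541 and 255 on day 7, against 946, 574 and 1014 on day 1. The ages did not overlap, but replicate 2 of day 7 and replicate 2 of day 1 came close to each other. The mean was 381 ± 146 on day 7 and 845 ± 237 on day 1 (SD, n = 3 each). The log2 change was -1.17 (SE 0.30; 95% interval -1.88 to -0.47; limma adjusted p = 0.0768), short of the threshold. It passed with array weights (adjusted p = 0.0398), with the mean of both its probe sets (0.0423), when day 7 replicate 2 was left out (0.0450), and when both arrays numbered 2 were left out (log2 change -1.72; 0.0206).

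The other Cdkn1a probe set, designed on another sequence record of the gene, was further apart. It read 131, 166 and 86.8 on day 7, against 378, 300.2 and 477 on day 1. Its log2 change was -1.61 (SE 0.25; adjusted p = 0.0243), so this probe set was called lower and the brighter one was not. With 1 array left out its adjusted p was 0.0906 (day 1 replicate 1), 0.0685 (day 1 replicate 3), 0.107 (day 7 replicate 1) and 0.0502 (day 7 replicate 3), none of which passed, and it passed when either array numbered 2 was left out.

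On the Cdkn1a promoter the sequence in view is that of p53, whose pathway genes were also measured. The window before the first listed start of the gene, at chr20:7150682-7150931, plus strand (GRCr8, RefSeq), held 1 exact match to the p53 half-site consensus, in capitals. Inexact matches were not searched, and any other start of the gene is not shown.
Cdkn1a: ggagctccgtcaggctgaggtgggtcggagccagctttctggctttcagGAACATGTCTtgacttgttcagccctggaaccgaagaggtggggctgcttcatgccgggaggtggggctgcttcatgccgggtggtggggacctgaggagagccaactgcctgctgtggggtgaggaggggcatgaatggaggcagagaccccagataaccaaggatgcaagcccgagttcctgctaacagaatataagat
The match begins 201 bases before the annotated start, and 6.64% of the 33469 windows held such a match. The windows of Cdkn2c and Rb1 also held 1 match each. Of 13 measured genes of the p53 pathway, none was called in either direction (limma), with a median log2 change of -0.14. At an unadjusted p under 0.05, 1 was higher and 1 lower, against 10.6% higher and 17.0% lower among all genes. For Mdm2, the p53-induced ubiquitin ligase that holds p53 in check, the log2 change was -0.73 (adjusted p = 0.0579). For Ccng1, a cyclin-like p53 target, it was -0.17 (adjusted p = 0.669).

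Cdkn1b, the CIP/KIP inhibitor that accumulates in resting cells largely through protein stability, did not differ detectably. It read 639, 508 and 601 on day 7, against 568, 550.3 and 615 on day 1, with a log2 change of 0.01 (95% interval -0.28 to 0.29; adjusted p = 0.982). Replicate 2 was the lowest array of each age. Its dimmer probe set had a log2 change of 0.14 (adjusted p = 0.642).

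Cdkn2c, the INK4 inhibitor of Cdk4 and Cdk6, had a log2 change above 0 that did not pass. It read 178, 145.5 and 173 on day 7, against 149.8, 116 and 111 on day 1, and day 7 replicate 2 lay below day 1 replicate 1. The log2 change was 0.40 (SE 0.15; 95% interval 0.06 to 0.74; adjusted p = 0.169). For the dimmer probe set it was 0.30 (adjusted p = 0.204).

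Within an array, Cdkn1a lay 1.57 lower relative to Cdkn2c on day 7 than on day 1 (SE 0.47), and Cdkn1b 0.39 lower relative to Cdkn2c (SE 0.16). The arrays of the ages did not overlap in these differences (exact permutation p = 0.1 each, the smallest possible; 0.18 adjusted). Cdkn1a lay 1.18 lower relative to Cdkn1b (SE 0.45), with overlap (exact p = 0.2; 0.257 adjusted).

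Rb1, the substrate of the D cyclin kinases and the repressor of E2F targets, read 58.8, 73.3 and 66.2 on day 7, against 90.0, 72.8 and 104 on day 1. Day 1 replicate 2 lay within the day 7 range. The log2 change was -0.41 (SE 0.15; 95% interval -0.77 to -0.05; adjusted p = 0.174). Of its relatives, Rbl1 (p107), which is highest in cycling cells, differed by -0.40 on the log2 scale (adjusted p = 0.0831), while Rbl2 (p130), which is highest in resting cells, differed by 0.47 (adjusted p = 0.0909). Neither relative passed, although for both the ages did not overlap. Relative to Rbl2, Rb1 lay 0.88 lower on day 7 than on day 1 (SE 0.27; exact permutation p = 0.1, the smallest possible; 0.18 adjusted), and relative to Rbl1 the difference was -0.01 (SE 0.17; exact p = 0.9).

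**Figure D2:**
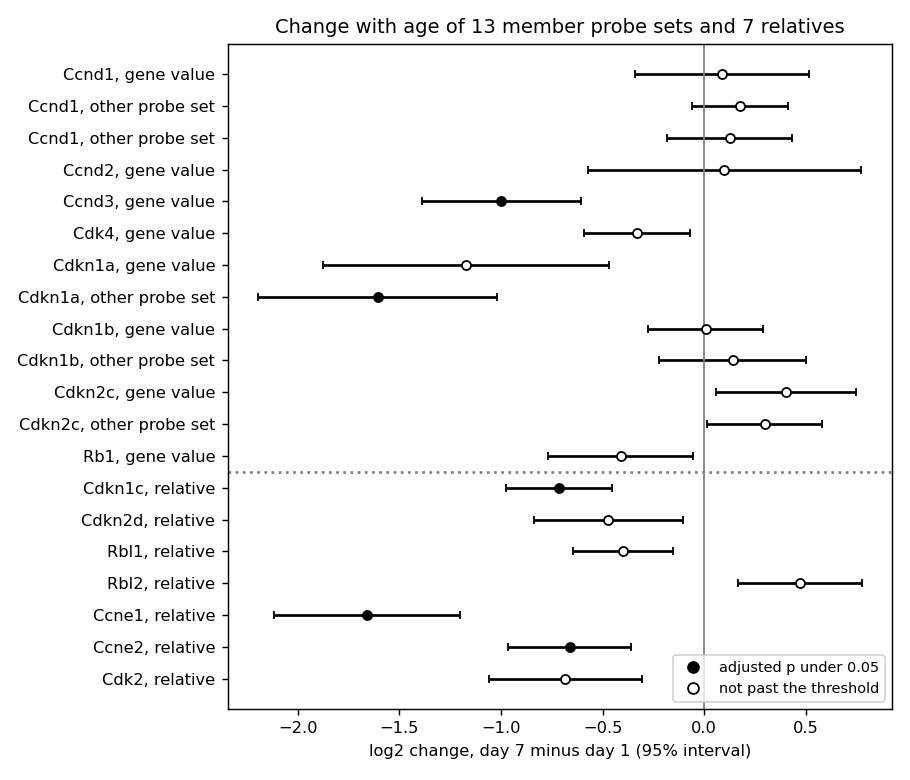
Log2 change (day 7 minus day 1) of 13 member probe sets (that of Cdk6 is left out) and, below the dotted line, of 7 relatives, with 95% intervals from limma. Filled points have an adjusted p under 0.05. Ccnd3 and the dimmer Cdkn1a probe set are the filled member points, with Cdkn1c, Ccne1 and Ccne2 among the relatives.

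Several of the genes were at an extreme on the same array. Ccnd3, Cdkn1a, Cdk4 and Rb1 were each highest on day 1 replicate 3, at 0.83, 0.89, 0.29 and 0.44 on the log2 scale above their own mean of the 6 arrays, and Cdkn2c, Ccnd1 and Ccnd2 were lowest there, at -0.36, -0.32 and -0.65. For Cdkn1a the order of the arrays was the same as for the skeletal muscle markers. From low to high it ran day 7 replicates 3, 1 and 2, then day 1 replicates 2, 1 and 3. The first principal component over all probe sets tested, the main axis on which the arrays differed, placed them in this order too. Its scores were 44.0, 35.0 and 14.5 on day 7 replicates 3, 1 and 2. On day 1 replicates 2, 1 and 3 they were -14.8, -34.8 and -43.8. The order is thus not particular to Cdkn1a and the muscle markers. The median of 10 muscle markers was -0.56, -0.02 and -0.83 on day 7 replicates 1, 2 and 3, against 0.52, 0.24 and 0.69 on day 1. Cdkn1a was at -0.65, -0.01 and -1.10 on day 7, against 0.79, 0.07 and 0.89 on day 1. Ccnd3 was at -0.61, -0.29 and -0.60 on day 7, against 0.33, 0.34 and 0.83 on day 1. Myod1, a transcription factor of muscle precursor cells, fell by 1.95 log2 units (adjusted p = 0.0303) and Myog, which drives their differentiation, fell by 1.66 (adjusted p = 0.0338). The log2 changes of the 10 muscle markers ran from -1.95 for Myod1 to -0.13 for Acta1 (limma adjusted p = 0.578), with a median of -0.93. The part of muscle RNA in the values of Cdkn1a and Ccnd3 was not tested.

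**Figure D3:**
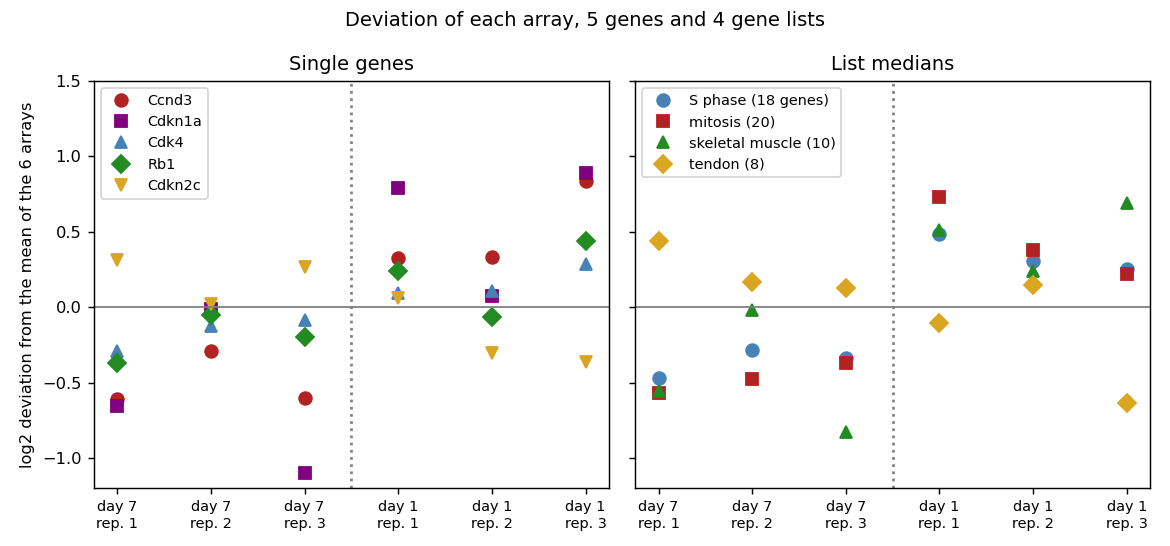
Deviation of each array from the mean of the 6 arrays, on the log2 scale, for 5 genes (left) and for the medians of 4 gene lists (right), with day 7 arrays left of the dotted line. Cdkn1a ranks the arrays as the skeletal muscle list does, and so does the first principal component over all probe sets (not shown). The S phase and mitosis lists are low on all 3 day 7 arrays.

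By the pattern over the 6 arrays, with Pearson's r of log2 values among 7107 genes brighter than the median gene and with no test, the nearest genes to Ccnd3 were Wdr77 (r = 0.999), Ing4 (0.998) and Ttyh2 (0.997). Those of Cdkn1a were Tmem209 (0.998), Hspb8 (0.998) and Retreg1 (0.997), and those of Cdk4 were Tmco6 (0.997), Vcl (0.991) and Eif4a1 (0.986). Cdkn2c was nearest to Msx1 (0.990), Fzd6 (0.990) and Vrk3 (0.989), and Rb1 to Hspa9 (0.997), Mcu (0.995) and Timm8a1 (0.995). For Ccnd1 the nearest were Tcn2 (0.982), Plekha1 (0.981) and Wnk1 (0.977), for Ccnd2 Gbf1 (0.990), Wasf2 (0.985) and Ltbr (0.974), and for Cdkn1b Hnrnpa0 (0.980), Arid1b (0.939) and Cyfip1 (0.933). All these values share the 6 arrays and their 2 ages. None is given for Cdk6, whose probe set lay at the negative control level.

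Other genes of G1 and S phase were also measured, not all of which act after the members. Beside the counts here and in the lists that follow, 3.15% of all genes were called lower and 1.93% higher. Of 11 other G1 genes 4 were lower and none higher (median log2 change -0.40): Ccne1 and Ccne2, the E cyclins that activate Cdk2, Ccna2, the cyclin of S phase, and Cdc25a, the phosphatase that activates Cdk2. Ccne1 read 47.7, 67.4 and 48.3 on day 7, against 172, 138 and 214 on day 1, clearly apart (log2 change -1.66, SE 0.20; adjusted p = 0.0141). Ccne2 fell by 0.66, Ccna2 fell by 0.81 and Cdc25a fell by 0.73 log2 units (adjusted p = 0.0395, 0.0415 and 0.0319). With the mean of all probe sets of a gene, Ccne2 differed by -0.33 (adjusted p = 0.128) and Cdc25a by -0.24 (0.230), so neither was called. Quantile normalization and a pseudocount of 16 each ended the calls of Ccne2 and Ccna2, which left 2 of the 11. Leaving out any 1 array ended the calls of Ccne2 and Cdc25a, and Ccna2 was called in 1 of the 6 fits. Cdk2 itself differed by -0.68 (adjusted p = 0.0636).

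Of 4 other CDK inhibitors, 1 was lower. Cdkn1c (p57), the imprinted CIP/KIP inhibitor of embryonic tissues, read 3764, 4077 and 3505 on day 7, against 6091, 5817 and 6684 on day 1. No array of either age came near the other group, and it fell by 0.71 log2 units (SE 0.11; limma adjusted p = 0.0243). As for Myc, leaving out day 1 replicate 1 (adjusted p = 0.0915), day 1 replicate 3 (0.0713), day 7 replicate 1 (0.109) or day 7 replicate 3 (0.0666) ended the call. The INK4 gene Cdkn2d (p19) differed by -0.47 on the log2 scale (adjusted p = 0.137). Cdkn2b, the INK4 inhibitor that TGF-beta induces, averaged 11.8 on day 7 and 11.5 on day 1. Cdkn2a, which encodes the INK4 inhibitor p16, averaged 6.91 on day 7 and 6.05 on day 1, close to the negative control.

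Another list held E2F factors and their partners, subunits of the DREAM complex, which represses cell cycle genes in resting cells, and related factors such as Foxm1. Of its 15 measured genes, 3 were lower and none higher (median -0.35). E2f7 and E2f8, the E2F repressors that are themselves made in S phase, fell by 1.03 and 1.16 log2 units (adjusted p = 0.0141 and 0.0186). Foxm1, the activator of mitotic genes, fell by 1.00 (adjusted p = 0.0309). E2f1, the classical activator held by Rb1, differed by -0.17 (adjusted p = 0.421).

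Of 18 genes of S phase 13 were lower and none higher, with a median of -0.72, and of 20 genes of mitosis 14 were lower and none higher, with a median of -0.91. All 18 and all 20 had a log2 change below 0. Mcm2 and Mcm4, subunits of the replicative helicase, fell by 0.64 and 0.79 log2 units (adjusted p = 0.0216 and 0.0154). Uhrf1, which maintains DNA methylation at replication, fell by 1.03 (adjusted p = 0.0226), and the uracil glycosylase Ung fell by 0.76 (adjusted p = 0.0227). In mitosis, the kinesin Kif2c fell by 1.05, the checkpoint kinase Bub1b fell by 1.23, the mitotic kinase Cdk1 fell by 1.03 and Aurkb, the kinase of the chromosomal passenger complex, fell by 1.09. These lists stood low on each day 7 array, with S phase medians of -0.47, -0.28 and -0.34 on day 7, against 0.49, 0.31 and 0.26 on day 1. The mitosis medians were -0.57, -0.48 and -0.37 on day 7, against 0.73, 0.38 and 0.22 on day 1. Both were highest on day 1 replicate 1, the array that stood apart in epidermal markers, whose median there was 4.40, while the other arrays were at -1.23 to -0.19. The day 7 arrays also lay below day 1 replicates 2 and 3 in both lists, but without day 1 replicate 1 the S phase list had 0 calls and the mitosis list 1. In that fit the number called lower over all genes also fell, from 448 to 37. The part of epidermal RNA was not tested. For comparison, 3.15% of all genes and 1 of the 9 members were called lower, and the difference between the lists was not tested.

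The counts of these lists depended on single arrays. With day 7 replicates 1, 2 and 3 left out in turn the S phase count was 0, 11 and 1, and with day 1 replicates 1, 2 and 3 left out it was 0, 9 and 3. The mitosis count was 0, 9, 5, 1, 8 and 10 in the same order, that of the other G1 genes 0, 1, 1, 0, 2 and 1, and that of the E2F and DREAM list 0, 2, 1, 0, 3 and 1. Over all genes, the number called lower was 0, 377, 79, 37, 382 and 107 in these fits, against 448 with all arrays.

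Genes that regulate the D cyclins and inhibitors were read against the same shares of all genes, 3.15% lower and 1.93% higher. Of 15 genes that act on the turnover of D cyclin, Cdkn1a or Cdkn1b proteins, 1 was lower and none higher (median -0.18). This was Dtl, the substrate receptor for Cdkn1a in S phase, which fell by 0.85 log2 units (adjusted p = 0.0207). Of 12 genes of the response to mitogens, which induces Ccnd1, 2 were lower and none higher (median -0.37). They were Myc and the immediate-early factor Egr1, which fell by 1.46 (adjusted p = 0.0180). Of 15 FoxO factors and genes of quiescence 1 was higher and none lower (median -0.15). Klf9, a hormone-responsive transcription factor, rose by 0.73 log2 units (adjusted p = 0.0227), but by 0.34 with the mean of its probe sets (adjusted p = 0.0910), which ended the only call of this list. Without 1 array, Dtl was called in 3 of 6 fits, Egr1 in 4, Klf9 in 2 and Ccne1 in 4.

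**Figure D4:**
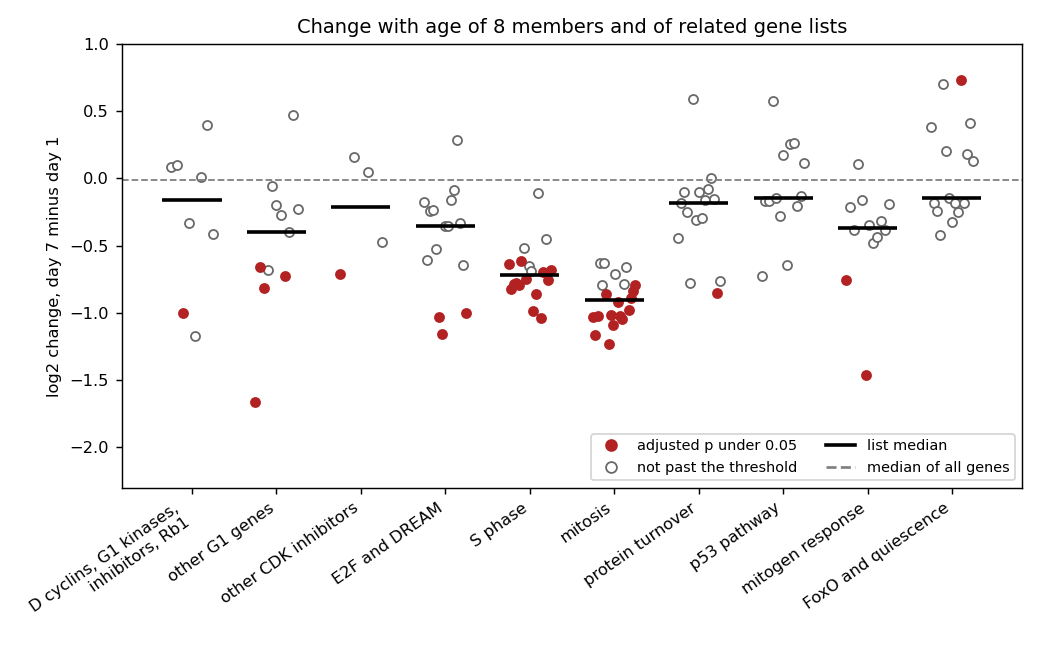
Log2 change (day 7 minus day 1) of the 8 members above the negative control level (Cdk6 is left out) and of every measured gene of 9 related lists. Filled points have an adjusted p under 0.05, black bars are list medians, and the dashed line is the median of all genes (-0.01). The S phase and mitosis lists lie wholly below 0, with medians of -0.72 and -0.91, while the 8 members have a median of -0.16.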

How the data were processed

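Intensities were deposited as 1 linear value per probe set and array for a rat Affymetrix array. Per the submitters' processing notes, MAS5 and RMA were used, with neither role nor version, and scaling and background correction were not given in the sources used here. Then log2(value + 1) of the deposited intensity was analysed as it stood. Leaving out 57 controls from 31099 probe sets kept 31042. A platform annotation gave 20826 of them 1 gene symbol. The ages were compared with limma 3.58.1 in R 4.3.3 (lmFit, eBayes, two-sided, Benjamini-Hochberg over all 31042), checked on simulated data. Related genes were compared by exact permutation of within-array differences over 9 pairs. The members and lists were chosen with earlier results of these data known. Named genes were all members, called genes of the G1, inhibitor and E2F lists, and up to 4 called genes of other lists with the smallest adjusted p; Cdk2, Rbl1, Rbl2, Cdkn2a, Cdkn2b, Cdkn2d, E2f1, Mdm2, Ccng1, Scx, Myod1 and Myog were named after their values were seen. Promoters of 6 members came from RefSeq (GRCr8), with the first listed start of each gene. Each was searched for the E-box, an E2F site, TGACGT, the GC box GGGCGG and the p53 half-site. The motif marked in each printed window was chosen by hand. None of the 6 windows held an E2F match. Replicate numbers were not treated as pairs: same-numbered deviations correlated at 0.05, -0.25 and -0.14. Alternatives were quantile normalization, median centring, a pseudocount of 16, a filter on dim probe sets, the mean of probe sets, an intensity trend, array weights, the replicate block, and arrays left out. For arrays, the small number of samples limits precision.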

Additional observations from a re-analysis of the deposited data

How the results depend on the processing

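Without 1 array, the log2 changes ran from -0.062 to 0.24 for Ccnd1, -0.20 to 0.30 for Ccnd2, -1.10 to -0.83 for Ccnd3, -0.37 to -0.27 for Cdk4, -1.46 to -0.92 for Cdkn1a, -0.062 to 0.10 for Cdkn1b, 0.32 to 0.53 for Cdkn2c and -0.55 to -0.29 for Rb1. The number of members called lower ran from 0 to 2. The difference in change ran from -0.36 to 0.27 for Ccnd1 against Ccnd2 and from -0.13 to 0.088 for Rb1 against Rbl1. With the replicate block, which the numbers do not support as a pairing, Ccnd3 still fell by 1.00 but lost its call (adjusted p = 0.0880), which left 0 members called. No same-numbered pair correlated above 0.1. The log2 change of Cdkn1a was -1.39 with the mean of probe sets, -1.19 with array weights and -1.72 without both arrays numbered 2, and it passed in each, so 2 members were called. Cdkn1b changed by -0.010 with median centring, and Ccnd1 against Ccnd2 by 0.031 with the mean of probe sets. The causes were not tested. No change is given for Cdk6, whose probe set lay at the negative control level. Of the 72 values of member changes under alternatives that kept all arrays or left out both numbered 2, 67 kept direction and side of the threshold. The filter on dim probe sets, the intensity trend and the replicate block cannot alter a log2 change, and genes that stayed uncalled count as kept. Of the 48 values with 1 array left out, 35 kept both, 8 changed direction, 4 lost the call and 1 gained it. Over all genes, where 274 were higher and 448 lower, the counts were 352 and 320 after quantile normalization, 538 and 897 with array weights, 182 and 393 with a pseudocount of 16, and 25 and 8 with the replicate block. Leaving out 1 array gave 4 to 271 higher and 0 to 382 lower. Under quantile normalization and a pseudocount of 16 each, the mitosis count was 10, and the S phase count was 11 and 9, and with the replicate block the counts of the S phase, mitosis, other G1, E2F, protein turnover, mitogen and FoxO lists were each 0.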
